A study of Mus musculus with 4 samples.

Results

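Dendritic cells were examined in mouse Achilles tendon, the tissue that joins the calf muscles to the heel bone, by droplet-based single-cell RNA sequencing. Of 36052 barcodes that passed a filter on quality, 240 were taken as dendritic cells. A UMI is a molecular tag that marks 1 captured RNA molecule, and the filter asked for 1000 UMIs, 500 genes and no more than 15% of UMIs from mitochondrial genes. The members had at least 5 UMIs of H2-Aa, at least 2 UMIs summed over a panel of Flt3, Cd209a, Xcr1, Clec9a and Ccr7, fewer than 5 UMIs summed over the complement genes C1qa, C1qb and C1qc, and none of Cd79a or Cd3e, which mark B and T cells. These measured values chose the members, so the levels of those genes are given as a description and were not tested.

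There were 4 libraries with 1 library per group. They were an injured and an uninjured control library of neonatal tendon at postnatal day 3, and an injured and an uninjured control library of adult tendon at 6 to 8 weeks of age. The mouse strain, genotype and sex, the number of mice in a library, the way the tendon was injured, the time from injury to collection and whether the stated age is that at injury are not given in the labels. All 4 tissues were digested with collagenase and DNase, and no sorting of cells is described. With 1 library per group, no difference between libraries has a replicate check, and the intervals at 95% given for shares, levels and ratios cover counting error only. The libraries held 68644322 to 128626912 UMIs, and the median kept barcode had 5748 UMIs in the neonate injury library and 9787 to 10698 in the other 3. No member barcode was shared between libraries. Members had a median of 6422.5 UMIs in neonate injury, 10016 in neonate control, 9913 in adult injury and 11631 in adult control, with a range over all members of 1142 to 46037.

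Dendritic cells take up antigen in tissues, carry it to lymph nodes and present it to T cells on MHC molecules. Conventional type 1 cells carry the chemokine receptor Xcr1 and the dead-cell receptor Clec9a and are known for presenting engulfed antigen on MHC class I. Type 2 cells, many of which carry the lectin Cd209a, are known for presenting antigen on MHC class II to helper T cells. On maturation, cells of either kind switch on Ccr7, the receptor that guides them to lymph nodes, and the actin-bundling protein Fscn1.

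MHC class II genes are switched on in these cells by the co-activator Ciita, which is recruited to a conserved promoter module that ends in an inverted CCAAT element, the Y box. Of 14 genes of the class II presentation list, 11 had an entry in the RefSeq promoter table of build GRCm38.p6, and H2-Ab1, Cd74 and Ciita had none. The 8-base form of the Y box that was searched, CTGATTGG or its reverse complement CCAATCAG, was found in the 250 bases before the start of 3 of these 11 genes, against 1258 of all 32851 windows of the same length (3.83%). H2-Aa chose the members. H2-Eb1 and H2-Oa differed between dendritic cells and macrophages, but so did H2-DMa, H2-DMb1, H2-DMb2, H2-Ob and Lgmn, which had no match. The windows shown are those of the 3 genes with a match. They lie at chr17:34287824-34288073 (minus strand) for H2-Aa, chr17:34305617-34305866 (plus strand) for H2-Eb1 and chr17:34092129-34092378 (plus strand) for H2-Oa, and capitals mark the match.
H2-Aa: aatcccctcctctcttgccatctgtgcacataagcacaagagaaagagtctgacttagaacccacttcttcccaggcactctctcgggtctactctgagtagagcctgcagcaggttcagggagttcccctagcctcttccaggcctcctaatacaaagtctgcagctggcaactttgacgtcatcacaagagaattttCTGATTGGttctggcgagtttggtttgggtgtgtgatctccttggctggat
H2-Eb1: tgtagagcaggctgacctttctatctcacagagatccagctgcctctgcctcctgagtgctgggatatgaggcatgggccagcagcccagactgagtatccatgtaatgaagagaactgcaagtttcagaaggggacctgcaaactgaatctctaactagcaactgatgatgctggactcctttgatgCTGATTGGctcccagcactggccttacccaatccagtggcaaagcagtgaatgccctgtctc
H2-Oa: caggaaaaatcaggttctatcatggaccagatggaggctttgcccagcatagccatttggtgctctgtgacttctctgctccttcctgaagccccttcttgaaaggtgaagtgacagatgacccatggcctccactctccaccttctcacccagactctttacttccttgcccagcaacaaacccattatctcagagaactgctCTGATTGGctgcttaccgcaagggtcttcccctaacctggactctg
The match begins 51 bases before the start in H2-Aa, 62 in H2-Eb1 and 46 in H2-Oa, on the strand of the gene in all 3. A match of letters is a description of the sequence only.

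Zbtb46, a marker of dendritic cells that the rule did not use, was higher in the members than in macrophages of the same library. Zbtb46, a transcription factor of conventional dendritic cells, stood at 212 CPM (the UMIs of a gene summed over the members of a library and scaled to a total of 1000000) in neonate injury, 122 in neonate control, 147 in adult injury and 72.6 in adult control. In C1q macrophages of the same libraries, defined by at least 10 C1q UMIs and none of the panel, Zbtb46 stood at 9.93, 16.8, 4.18 and 11.5 CPM in that order of libraries. Of 11 macrophage markers, 9, 7, 11 and 7 were detected in the members of those libraries, with summed levels of 213 to 828 CPM against 7002 to 16180 CPM in the macrophages. The list holds C1qa, C1qb and C1qc, which the rule capped in the members and which define the macrophages, so nothing is read from this gap. Folr2 and Lyve1, which neither rule used, were at 0 in 3 of the 4 libraries. Other markers of the list outside both rules were detected, among them Mrc1 in all libraries but neonate control. Fibroblast marker RNA was present at 6533 CPM in neonate injury, 4696 in neonate control, 11555 in adult injury and 7019 in adult control, and all 5 of these markers were detected in each library. Cells with 10 or more UMIs of Col1a1 and Col1a2 were 8 of 96 members in neonate injury, 1 of 11 in neonate control, 39 of 100 in adult injury and 3 of 33 in adult control. Monocyte markers summed to 1052, 1317, 3133 and 5583 CPM in the same order, with Chil3 at 0 in all 4 libraries. Adult control, with the highest of these sums, had the lowest Zbtb46. Its Cd209a cells also carried Cd163 and Lyz2, as described below, which limits the name for that library. Siglech, a marker of plasmacytoid dendritic cells, had a UMI in 6 members, all of adult injury. The 5 neutrophil markers were at 0 in 2 libraries and summed to at most 28.4 CPM in the others.

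The panel genes were themselves near 0 in fibroblasts of the same libraries, while Fscn1 and, in adult injury, H2-Aa were not. Flt3, the receptor for the growth factor that sustains dendritic cells, had a UMI in 52 of 96 members of neonate injury, 7 of 11 of neonate control, 79 of 100 of adult injury and 21 of 33 of adult control, against 0.0547% to 0.803% of fibroblasts. Cd209a had a UMI in 46, 6, 52 and 26 members and in at most 0.331% of fibroblasts, and Xcr1 in 28, 2, 21 and 6 members and in at most 0.0945%. Clec9a was at 132 CPM in the members of neonate injury, 68.5 in neonate control, 97.1 in adult injury and 81.7 in adult control. Ccr7 was at 135, 60.9, 236 and 27.2 CPM and Fscn1 at 151, 7.61, 230 and 18.2 CPM in the same order. The rule or the subset definition used both genes, so nothing is read from these differences. In the controls Ccr7 had a UMI in 2 of 11 neonatal and 1 of 33 adult members, and Fscn1 in 1 of 11 and 1 of 33. Fibroblasts had Fscn1 at 163, 147, 192 and 23.1 CPM in that order of libraries. H2-Aa stood out in fibroblasts of adult injury. It had a UMI in 32.8% of adult injury fibroblasts, against 0.608% to 2.60% of fibroblasts in the other 3 libraries, at median depths of 18537 and 6325 to 12270 UMIs. Its level in the members, 6333 CPM in neonate injury, 8319 in neonate control, 6910 in adult injury and 8978 in adult control, is set by the rule.

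Few cells lay near the threshold on H2-Aa and many near that on the panel. With exactly 2 panel UMIs, 22 members of neonate injury, 4 of neonate control, 9 of adult injury and 4 of adult control lay just inside. With exactly 1, 28, 1, 18 and 4 cells lay just outside. Cells that met all other limits but had no panel UMI numbered 61, 8, 123 and 9 in that order. In adult injury they outnumbered the 100 members. Whether some of them are dendritic cells was not tested. No member had exactly 5 UMIs of H2-Aa, and 1 cell each of neonate injury and adult injury had 4. The limit on C1q removed 18 cells of adult injury, 3 of adult control, 1 of neonate control and none of neonate injury, and 69 of 100 members in adult injury had no C1q UMI, as did 90 of 96, 9 of 11 and 31 of 33 in neonate injury, neonate control and adult control.

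Dendritic cells were a larger share of the injured than of the uninjured library at each age, and the largest share of the 4 was that of adult injury. They made up 0.645% of cells in neonate injury (96 of 14885, 95% interval 0.523 to 0.787%) and 0.105% in neonate control (11 of 10429, 0.0527 to 0.189%). They made up 2.16% in adult injury (100 of 4625, 1.76 to 2.62%) and 0.540% in adult control (33 of 6113, 0.372 to 0.757%). The intervals did not overlap within either age, while those of neonate injury and adult control did. Thinning every cell to 2000 UMIs lowered all 4 shares, to 0.363% in neonate injury, 0.0590% in neonate control, 1.25% in adult injury and 0.309% in adult control, and left the order as it was.

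**Figure D1:**
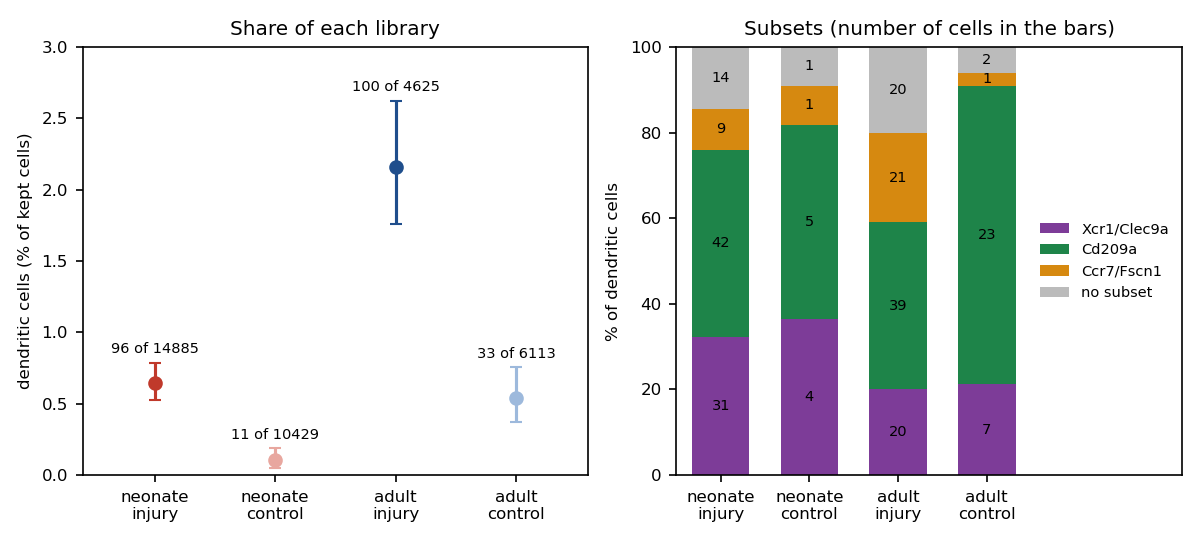
Left, share of kept barcodes that were dendritic cells in each library, in percent, with exact 95% binomial intervals. Right, the members of each library as stacked percentages of the Xcr1/Clec9a, Cd209a and Ccr7/Fscn1 subsets and of members without a subset. The adult injury library has the highest share (2.16%), and the Ccr7/Fscn1 part is largest there (21%).

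Set against macrophages, the order was different. Dendritic cells were 7.16% of dendritic cells plus C1q macrophages in neonate injury (5.84 to 8.68%) and 3.11% in neonate control (1.56 to 5.49%). They were 9.08% in adult injury (7.45 to 10.9%), with 1001 macrophages, and 17.5% in adult control (12.3 to 23.6%), with 156. Among cells with a UMI of the leukocyte gene Ptprc, members were 5.75% in neonate injury and 1.54% in neonate control, and 5.09% in adult injury and 9.57% in adult control. On both of these denominators the injured library was above its control in neonates and below it in adults. The digestion and the tissue dissected can change such shares, and their part was not tested.

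Each member was placed in the subset whose genes had the most UMIs, at least 2, and 37 of the 240 stayed without one. The Cd209a subset was the largest with 109 cells (45.4%), followed by the Xcr1/Clec9a subset with 62 (25.8%) and the Ccr7/Fscn1 subset with 32 (13.3%). Xcr1/Clec9a cells were 31 of 96 members in neonate injury (32.3%), 4 of 11 in neonate control, 20 of 100 in adult injury and 7 of 33 in adult control (21.2%). Cd209a cells were 42, 5, 39 and 23 in that order, which put them at 39% of members in adult injury (29.4 to 49.3%) and 69.7% in adult control (51.3 to 84.4%), without overlap of the intervals. Ccr7/Fscn1 cells were 9 of 96 in neonate injury (9.38%), 1 of 11 in neonate control, 21 of 100 in adult injury (21%, 13.5 to 30.3%) and 1 of 33 in adult control (3.03%, 0.0767 to 15.8%), where the adult intervals overlapped. At least 2 UMIs of both subsets' genes were found in 3 cells for Xcr1/Clec9a with Cd209a, in 7 for Xcr1/Clec9a with Ccr7/Fscn1 and in 11 for Cd209a with Ccr7/Fscn1, and at least 1 UMI of both in 11, 11 and 21. Fscn1 alone is not specific here, since 16.5% to 75.4% of fibroblasts had a UMI of it, but 28 of the 32 Ccr7/Fscn1 cells also had a UMI of Ccr7.

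**Figure D2:**
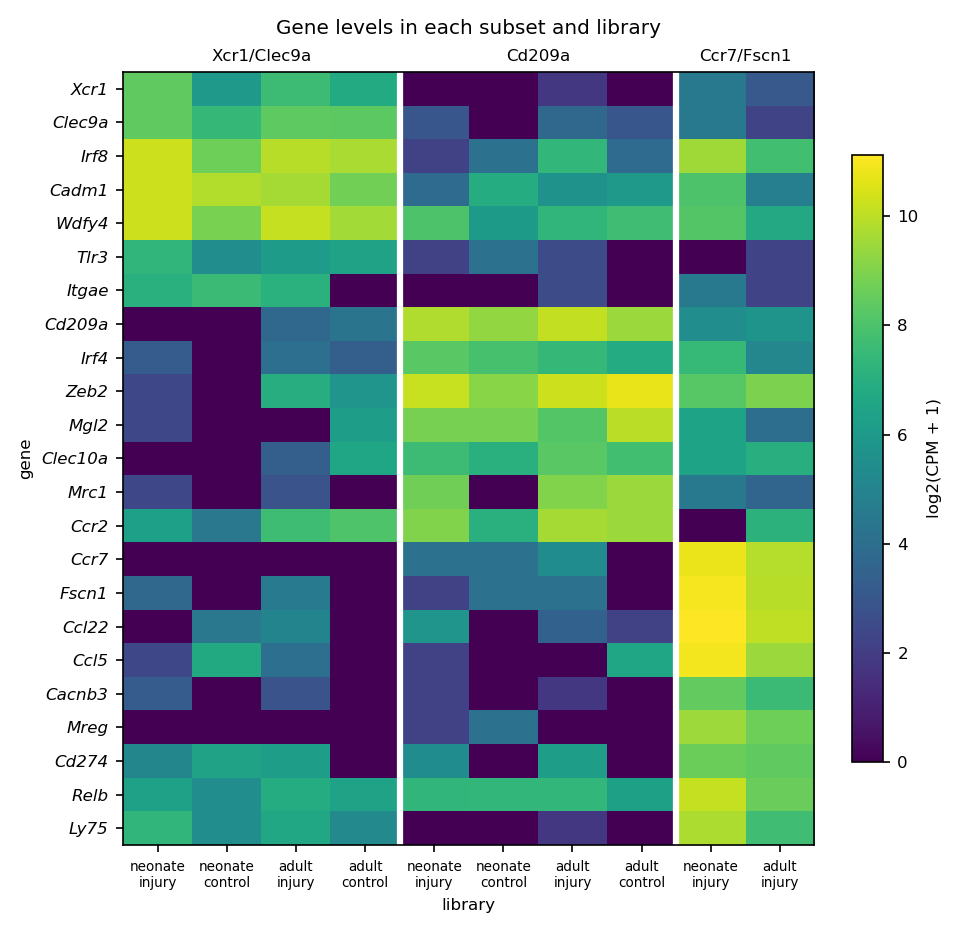
Heat map of log2(CPM + 1) of 23 genes (rows) by subset and library (columns). The Xcr1/Clec9a and Cd209a subsets are shown for all 4 libraries. The Ccr7/Fscn1 subset is shown for the injured libraries only, as each control has 1 such cell. Irf8, Cadm1 and Wdfy4 are high in the Xcr1/Clec9a columns, Mgl2, Clec10a and Mrc1 in the Cd209a columns, and Ccl22, Ccl5 and Mreg in the Ccr7/Fscn1 columns of the injured libraries.

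Xcr1/Clec9a cells and Cd209a cells of the same library differed in the transcription factors that are known to specify type 1 and type 2 cells. Irf8, which type 1 cells require, stood at 1256 CPM in Xcr1/Clec9a cells against 3.43 CPM in Cd209a cells of neonate injury, and at 966 against 165 CPM in adult injury. It had a UMI in all 51 Xcr1/Clec9a cells of the 2 injured libraries and in 16 of 81 Cd209a cells (log2 fold change 4.00 ± 0.31 SE, adjusted p = 9.56e-34). Irf4, a factor of type 2 cells, ran the other way, at 8.49 against 306 CPM in neonate injury and 15.7 against 168 CPM in adult injury (-4.05 ± 0.53, adjusted p = 2.55e-12). Zeb2, a repressor of the type 1 fate, had a UMI in 5 of 51 Xcr1/Clec9a cells and 78 of 81 Cd209a cells (-4.35 ± 0.29, adjusted p = 2.86e-46). Batf3, the partner factor of type 1 cells, was at 127 against 103 CPM in neonate injury and 75.3 against 32.1 CPM in adult injury and was not called. These p-values are from edgeR's quasi-likelihood test on summed counts with the library as a block and Benjamini-Hochberg adjustment over 6926 genes. The contrast rests on 2 libraries, neonate injury and adult injury, the only ones with at least 10 cells of both subsets, and its fit had 1 residual degree of freedom.

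Over all genes, 397 (5.73%) were higher and 468 (6.76%) lower in Xcr1/Clec9a than in Cd209a cells at an adjusted p under 0.05. The number of calls depended on the model. DESeq2 called 47 higher and 73 lower, the fit without the block 48 and 45, and the fit with at least 5 cells per class 125 and 176. That last fit was added after the data had been seen, and it let in the Xcr1/Clec9a cells of adult control, the Cd209a cells of neonate control and the Ccr7/Fscn1 cells of neonate injury. Irf4, Wdfy4, Itgae, Mrc1, Mgl2 and Clec10a passed in all of these fits. Irf8 passed with at least 5 cells (adjusted p = 0.0098), but had an adjusted p of 0.165 in DESeq2 and 0.0915 without the block, and Zeb2 one of 0.0421 in DESeq2 and 0.0533 without the block.

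Antigen presentation genes were divided. Of 18 genes tested in the class I presentation list, 5 were higher and 3 lower, with a median of 0.56 against -0.03 for all genes on the log2 scale. Wdfy4, which cross-presentation by type 1 cells requires, stood at 1243 against 258 CPM in neonate injury and 1126 against 160 CPM in adult injury (2.60 ± 0.26, adjusted p = 2.99e-20). The peptide transporter gene Tap2 was higher by 1.67 ± 0.44 (adjusted p = 0.0024) and the classical class I gene H2-K1 lower by an estimate of -0.76 ± 0.23 (adjusted p = 0.00867). With at least 5 cells per class 1 gene of this list was higher and 0 lower, and in DESeq2 likewise 1 and 0. Of 13 class II genes, 2 were higher and 6 lower (median -0.42), but 0 and 2 in DESeq2 and 1 and 2 with at least 5 cells per class. H2-Ob, a chain of the class II modulator H2-O, was higher (2.29 ± 0.50, adjusted p = 0.00014, but 0.755 in DESeq2), and the lysosomal protease gene Ctss was lower (-2.05 ± 0.26, adjusted p = 3.34e-13). Cst3, which encodes the protease inhibitor cystatin C, was at 6233 against 1405 CPM in neonate injury and 5980 against 1065 CPM in adult injury.

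Pattern recognition receptors were the list with the lowest median, -5.26, with 2 of 13 genes higher and 10 lower in Xcr1/Clec9a cells. Mgl2, a galactose-binding lectin, had 1 UMI in 51 Xcr1/Clec9a cells and 248 in 81 Cd209a cells (-7.28 ± 0.59, adjusted p = 8.24e-32). The mannose receptor gene Mrc1 had 3 and 333 UMIs (-6.31 ± 0.50) and the lectin gene Clec10a 3 and 182 (-5.50 ± 0.60). Mgl2 and Clec10a are close paralogs, as are the Cd209 genes, and reads of such genes may be split or lost in counting. The beta-glucan receptor gene Clec7a was at 14 and 374 UMIs. Tlr3, the receptor for double-stranded RNA, was one of the 2 higher genes, at 161 against 3.43 CPM in neonate injury and 69 against 4.93 CPM in adult injury. In DESeq2, 0 genes of this list were higher and 8 lower.

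The called chemokines, receptors and cytokines were lower in Xcr1/Clec9a cells, apart from Itgae and Il12b. Of 11 chemokine ligands, 0 were higher and 5 lower (median -1.87), among them Ccl9 with 7 UMIs in Xcr1/Clec9a cells and 306 in Cd209a cells. DESeq2 called 3 of these ligands lower and the fit without the block 1, which was Ccl9. Of 11 receptors, 1 was higher and 6 lower (median -1.54), but 1 and 3 in DESeq2 and 1 and 1 without the block. The integrin gene Itgae, which encodes CD103, was at 132 against 0 CPM in neonate injury and 138 against 4.93 CPM in adult injury (5.45 ± 0.73, adjusted p = 1.06e-11). The integrin gene Itgam, which encodes CD11b, had 2 UMIs in Xcr1/Clec9a cells and 179 in Cd209a cells. Ccr2, the receptor that monocytes use to enter tissue, was at 76.4 against 519 CPM in neonate injury and 204 against 796 CPM in adult injury (-2.24 ± 0.29, adjusted p = 2.23e-12). Of 13 cytokine genes, 1 was higher and 5 lower (median -0.96). In DESeq2 Il1rn and Il1b alone were called, both lower, and without the block no cytokine was. Il12b, the higher gene, had an adjusted p of 0.16 with at least 5 cells per class. Il1rn, the interleukin-1 receptor antagonist, was found in 0 of 51 Xcr1/Clec9a cells and 18 of 81 Cd209a cells and was at least 47.8-fold lower, a bound that uses a floor of 3 counts over the subset. Interleukin-1 beta, Il1b, was lower by -1.35 ± 0.21 on the log2 scale.

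Co-stimulatory and inhibitory ligands had 0 genes higher and 3 lower of 12 (median -0.82), and regulatory genes of mature cells 0 and 5 of 15 (median -0.64). DESeq2 called none of the ligands and 2 regulatory genes, Tnfaip3 and Nfkbia. With at least 5 cells per class 1 of each was called, Tnfsf4 and Tnfaip3, and without the block none. Immediate early genes, which tissue digestion can induce, had 0 higher and 8 lower of 15 (median -0.66), with Egr1 at -1.46 ± 0.28. None of these 8 passed in DESeq2 or with at least 5 cells per class. No gene of the G2M and S phase lists was called. Among the genes with the highest and lowest fold changes, those found in many cells were Gpr141b, an orphan receptor gene, and Clec4a3, an inhibitory lectin gene. Gpr141b had a UMI in 26 of 51 Xcr1/Clec9a cells and 0 of 81 Cd209a cells, at least 21.4-fold higher. Clec4a3 had one in 0 of 51 and 38 of 81, at least 19.9-fold lower. The other highest genes Sele, Ly6d, Lrg1, Plvap, Il12b and Lgr5 were each found in 1 to 5 of the Xcr1/Clec9a cells. Itga3 was found in 12. None of these genes passed in DESeq2, where each had an adjusted p of 0.33 or more. Of the lowest genes, Slc7a11, Ccrl2, Ear2, Pgf, Osm and Adora2b were found in 14 to 32 of 81 Cd209a cells and in 0 of 51.

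**Figure D3:**
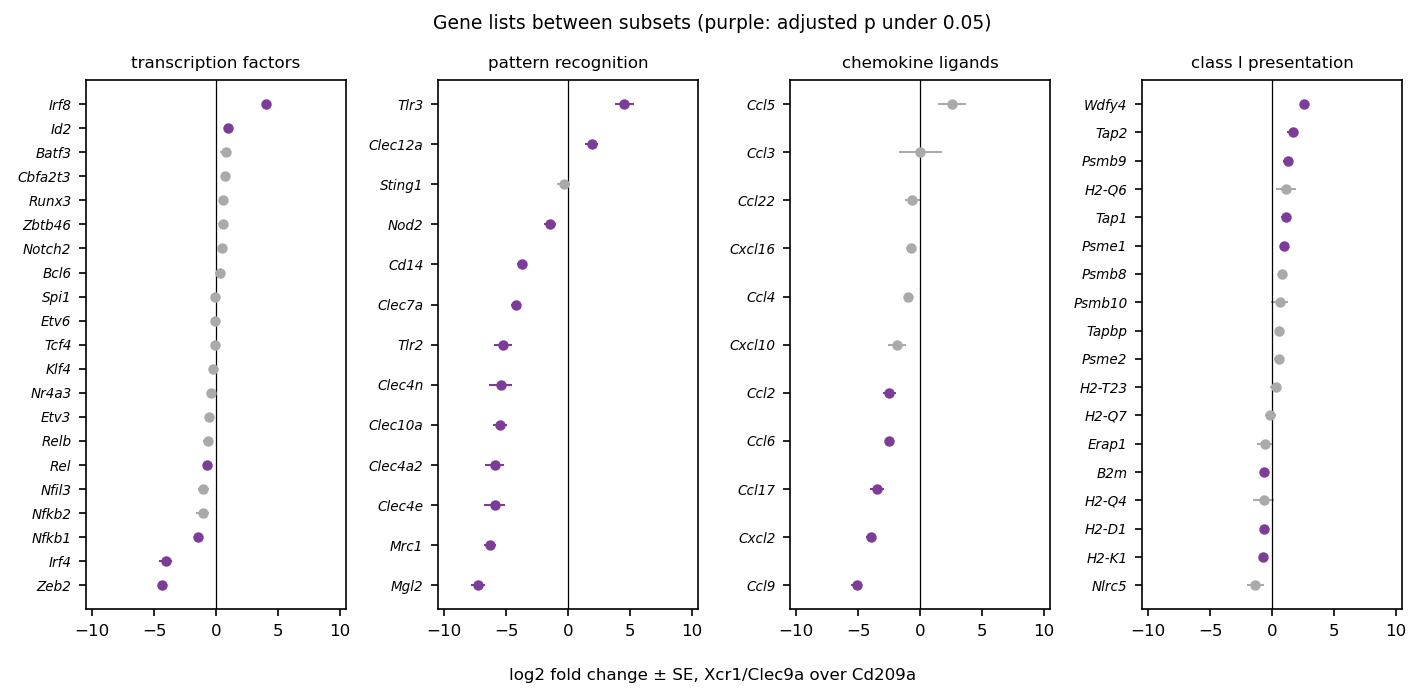
Log2 fold change of Xcr1/Clec9a over Cd209a cells for genes of 4 lists, one panel per list, with an approximate standard error computed back from the test. Purple points had an adjusted p under 0.05 in edgeR's quasi-likelihood test. Mgl2 (-7.28), Mrc1 (-6.31), Zeb2 (-4.35) and Irf8 (4.00) lie far from 0.

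Ccr7/Fscn1 cells reached 10 cells in adult injury only, so that no contrast with them could be tested at the planned minimum. At a minimum of 5 cells, which was chosen after the data had been seen, 9 cells of neonate injury and 21 of adult injury entered. Against Cd209a cells 61 of 5852 genes (1.04%) were higher and 35 (0.598%) lower, and against Xcr1/Clec9a cells 122 (2.08%) were higher and 93 (1.59%) lower. Both contrasts had this fit alone. No DESeq2, unblocked or leave-one-out fit was made for them, so how far their calls depend on the model was not tested. Among the genes that were higher were known genes of mature, migrating dendritic cells. Ccl22, a chemokine that attracts regulatory and helper T cells, stood at 2233 CPM in Ccr7/Fscn1 cells, 0 in Xcr1/Clec9a cells and 54.9 in Cd209a cells of neonate injury, and at 1080, 31.4 and 9.86 CPM in adult injury. Ccl5, which attracts T cells, stood at 1951, 4.24 and 3.43 CPM in neonate injury and at 703, 15.7 and 0 CPM in adult injury. Mreg, a gene of vesicle transport, had a UMI in 20 of 30 Ccr7/Fscn1 cells, 0 of 51 Xcr1/Clec9a cells and 1 of 81 Cd209a cells, which made it at least 84.3-fold higher than in Xcr1/Clec9a cells.

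Against Cd209a cells the log2 fold changes by edgeR's quasi-likelihood test were 8.13 ± 0.79 for Mreg (adjusted p = 0.00252), 7.27 ± 0.98 for Ccl5 (adjusted p = 0.00497) and 5.73 ± 0.76 for Ccl22 (adjusted p = 0.00497). The endocytic receptor gene Ly75, which encodes DEC-205, was at 867 against 0 CPM in neonate injury and 209 against 2.47 CPM in adult injury (7.79 ± 0.77, adjusted p = 0.00133). Migration and cytoskeleton genes had 6 higher and 0 lower of 14 (median 2.10, all genes -0.08), among them the calcium channel subunit gene Cacnb3 and Tbc1d4. Regulatory genes had 4 higher and 0 lower of 15 (median 0.85), which were Cd200, Cd63, Birc2 and Socs2. Co-stimulatory and inhibitory ligands had 2 higher and 0 lower of 11 (median 0.56). These were the inhibitory ligands Cd200 and Cd274, and Cd274, which encodes PD-L1, was at 390 against 41.2 CPM in neonate injury and 342 against 71.5 CPM in adult injury (2.69 ± 0.50, adjusted p = 0.0352). Relb, an NF-kappa-B subunit of mature cells, was at 1127 against 158 CPM in neonate injury and 388 against 163 CPM in adult injury. Genes that were lower included the adaptor gene Blnk (-5.67 ± 1.04, adjusted p = 0.0273), Mrc1, Ccl6 and the receptor gene Ccr2 (-2.92 ± 0.58, adjusted p = 0.0394).

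Against Xcr1/Clec9a cells, migration genes had 6 higher of 14 (median 2.51), regulatory genes 6 of 15 (median 2.14), chemokine ligands 5 of 11 (median 2.13) and co-stimulatory and inhibitory ligands 4 of 11 (median 2.16), each with 0 lower and beside -0.06 for all genes. Il4i1, a secreted enzyme that degrades amino acids, had a UMI in 18 of 30 Ccr7/Fscn1 cells and 1 of 51 Xcr1/Clec9a cells (6.74 ± 1.28, adjusted p = 0.0165). Cd40, the receptor for T cell help, was higher by 2.25 ± 0.55 (adjusted p = 0.0414). Hepacam2 had a UMI in 0 of 30 and 43 of 51 cells and was at least 34.2-fold lower. Wdfy4 (-2.82 ± 0.41, adjusted p = 0.00376), Tlr3 (-4.68 ± 1.04, adjusted p = 0.0282), the nucleotide-sugar receptor gene P2ry14 (-5.70 ± 0.95, adjusted p = 0.00724) and Itgae (-4.22 ± 0.99, adjusted p = 0.039) were lower.

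Il12b, the shared subunit of interleukins 12 and 23, was present in Ccr7/Fscn1 cells of 1 injured library only. It had 69 UMIs in 5 of 9 Ccr7/Fscn1 cells of neonate injury (1496 CPM, 1164 to 1893) and none in 21 of adult injury (0 CPM, upper bound 14). Xcr1/Clec9a cells had 46.7 CPM in neonate injury and 72.1 CPM in adult injury, in 2 of 31 and 3 of 20 cells, and the Cd209a cells of both had 0. Its contrast between Ccr7/Fscn1 and Cd209a cells had an adjusted p of 0.097, and the difference between the 2 libraries cannot be tested.

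Dendritic cells and C1q macrophages of the same library differed in 778 genes higher (7.8%) and 800 lower (8.02%) of 9974 tested, in edgeR's quasi-likelihood test over all 4 libraries with the library as a block. Without the neonate injury library 403 were higher and 377 lower. Transcription factors of dendritic cells were mostly higher, with 13 of 21 higher and 1 lower (median 1.36, all genes -0.03). Zbtb46 was higher by 4.00 ± 0.43 (adjusted p = 0.000153). Runx3, a factor of lymphoid and dendritic cells, was at 169 against 19.2 CPM in neonate injury, 129 against 8.39 in neonate control, 317 against 49.9 in adult injury and 77.2 against 11 in adult control (3.18 ± 0.29, adjusted p = 6.31e-05). The nuclear receptor gene Nr4a3 was higher by 3.15 ± 0.24 (adjusted p = 2.33e-05). Irf4 was at 185 against 30.3, 251 against 22.9, 98 against 22 and 77.2 against 28.2 CPM in the same order, and the groups did not overlap over libraries. Zeb2 was the 1 lower factor (-0.97 ± 0.25, adjusted p = 0.0212), with an adjusted p of 0.0644 without neonate control, 0.116 without neonate injury and 0.178 without the block.

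**Figure D4:**
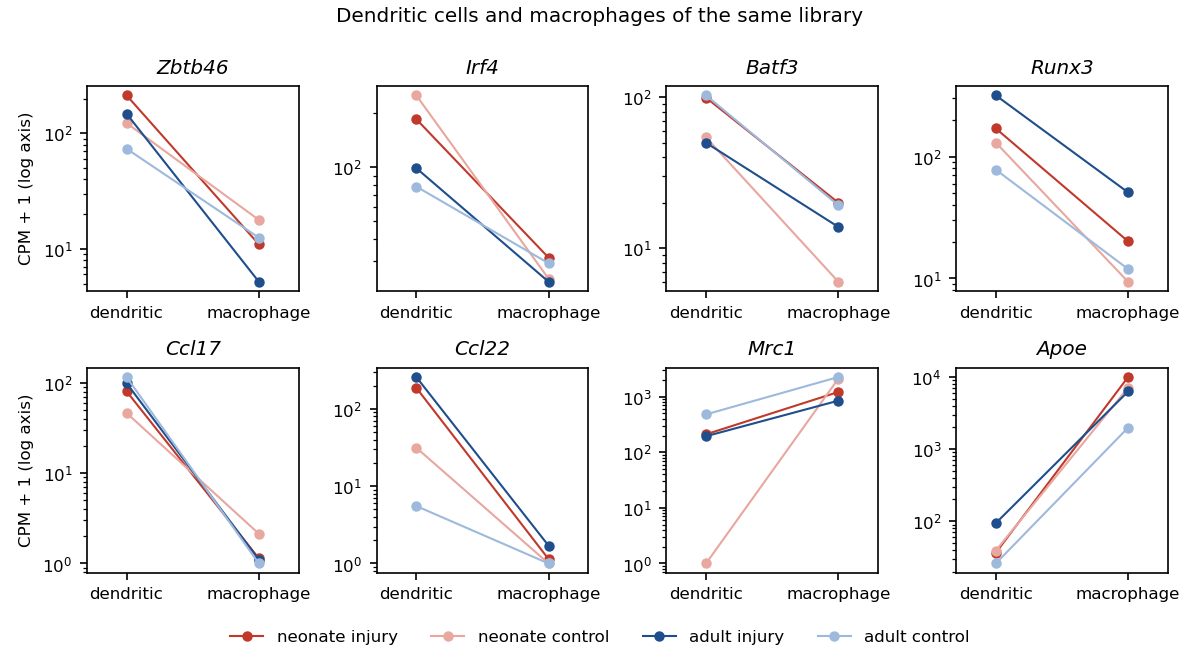
CPM + 1 on a log axis for 8 genes in dendritic cells (left point) and C1q macrophages (right point) of each of the 4 libraries, joined by a line per library. Zbtb46, Irf4, Batf3, Runx3, Ccl17 and Ccl22 are higher in dendritic cells in all 4, and Mrc1 and Apoe are lower.

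Ccl22 and Ccl17 were among the 8 genes with the highest fold changes. Ccl22 had 426 UMIs in 240 dendritic cells and 8 in 2744 macrophages (8.95 ± 0.50, adjusted p = 1.27e-05), and Ccl17, its partner ligand of the receptor Ccr4, 224 and 7 (8.00 ± 0.66, adjusted p = 6.17e-05). Il12b had 104 UMIs in 11 dendritic cells and none in the macrophages, at least 343-fold higher. Klri1, a lectin-like receptor gene, Septin3 and the nucleotide receptor gene P2ry10 were found in 56, 83 and 153 dendritic cells and in 1, 5 and 15 macrophages. Cxcl2, which attracts neutrophils, was lower (-3.69 ± 0.37, adjusted p = 0.000111), and the whole list had 3 higher and 4 lower of 12 (median -0.98). Of 13 cytokines 2 were higher and 2 lower, where Il1b was higher (3.36 ± 0.45, adjusted p = 0.000538) and Il10 and Tnf were lower.

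Co-stimulatory and inhibitory ligands had 4 higher and 1 lower of 10 (median 1.14). Cd80, a ligand of CD28 and CTLA-4, was at 248 against 35.9 CPM in neonate injury, 167 against 27.9 in neonate control, 451 against 42.5 in adult injury and 61.3 against 38.1 in adult control (2.54 ± 0.39, adjusted p = 0.0013). The 2 classes lay closest in adult control. Cd86, the other CD28 ligand, was at 677 against 492, 540 against 643, 942 against 280 and 390 against 401 CPM in that order, and was not among the genes called. Dendritic cells were above macrophages in the injured libraries. No order is read from the controls, which had 11 neonatal and 33 adult members. Icosl, Pdcd1lg2 and Cd274 were also higher and Lgals9 lower. Regulatory genes of mature cells had 10 higher and 1 lower of 17 (median 1.42), led by Stat4 (4.53 ± 0.38, adjusted p = 3.54e-05) and Traf1 (3.34 ± 0.32, adjusted p = 9.53e-05), with the tetraspanin gene Cd63 lower (-2.50 ± 0.26).

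Class II genes were higher, with 9 higher and 1 lower of 13 (median 3.82), but H2-Aa chose the members and nothing is read from this list. H2-Eb1 was at 6205 against 315 CPM in neonate injury, 6531 against 63.1 in neonate control, 5759 against 1228 in adult injury and 6602 against 219 in adult control. H2-Oa had 64 UMIs in 43 dendritic cells and 4 in 4 macrophages. Ciita, the co-activator named with the promoter sequences, was higher by 3.79 ± 0.45, and the protease gene Lgmn was lower. Class I presentation genes, which the rule did not use, had 7 higher and 0 lower of 18 (median 0.71), with Wdfy4 at 2.87 ± 0.24 (adjusted p = 4.06e-05) and the immunoproteasome gene Psmb8 at 1.66 ± 0.25 (adjusted p = 0.00113).

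Apoe, a lipid carrier and one of the genes of cholesterol efflux, was at 35.4 against 9942 CPM in neonate injury, 38.1 against 7071 in neonate control, 92.8 against 6266 in adult injury and 25 against 1976 in adult control (-6.91 ± 0.44, adjusted p = 1.27e-05). With Abca1 (-3.43 ± 0.39), Nr1h3 and Mylip, 4 of 8 efflux genes were lower and 0 higher (median -1.50), of which 2 were called without the block. Pattern recognition receptors had 4 higher and 8 lower of 18 (median -1.13), with the cytosolic sensor gene Nod2 higher and Tlr7, Tlr4 and Tlr2 lower, and without the block 3 and 3. The resident macrophage genes Lyve1, Folr2 and Pf4 had 1, 1 and 9 UMIs in dendritic cells and 8260, 6867 and 49417 in macrophages. Receptors had 3 higher and 4 lower of 10, migration genes 7 and 1 of 13, interferon response genes 0 and 1 of 15 and immediate early genes 0 and 4 of 15, and G2M, S phase and heat shock genes had no call in either direction.

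Monocytes, defined by UMIs of Ly6c2, Ccr2 and Csf1r, were scarce, and 10 cells each in neonate control and adult injury allowed a contrast. Against them 24 genes (0.241%) were higher and 43 (0.431%) lower in dendritic cells, which without the library block became 1 and 3. Cadm1, an adhesion molecule of type 1 cells, had a UMI in 42 of 111 dendritic cells and 0 of 20 monocytes and was at least 26.1-fold higher. Irf4 was in 46 and 0 cells (at least 11-fold higher). Tfec, a transcription factor of macrophages, was in 1 of 111 dendritic cells and 9 of 20 monocytes (-7.41 ± 0.77, adjusted p = 0.00652), and Apoe was lower by an estimate of -4.46 ± 0.47 (adjusted p = 0.00652).

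Between adult injury and adult control, members of the injured library had higher levels of co-stimulatory genes. Of 12 co-stimulatory and inhibitory ligands measured with at least 20 UMIs, 10 were higher by 2-fold or more and 0 lower, and their median log2 ratio was 1.78. Over all 8090 genes, 17.8% were higher and 7.86% lower by 2-fold or more, and the median was 0.16. Cd80 was at 451 CPM in adult injury and 61.3 CPM in adult control (log2 ratio 2.86, 2.32 to 3.5), with a UMI in 74 of 100 and 11 of 33 cells. Cd274 was at 155 and 4.54 CPM (4.77, 3.22 to 8.15), in 41 of 100 and 1 of 33 cells. Tnfsf4, which encodes OX40 ligand, was at 87.7 CPM in 17 cells of adult injury and at 0 in adult control, at least 12.9-fold higher. No test stands behind these ratios, and the fibroblast marker sum moved with them, at 11555 CPM in adult injury and 7019 CPM in adult control. Without the cells that had 10 or more collagen UMIs, which left 61 and 30 cells, 7 of 9 ligands measured were higher by 2-fold or more and 0 lower (median 2.87, all genes 0.18). Of all 5909 genes measured in those cells, 1097 were higher and 541 lower by 2-fold or more.

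Within the Cd209a subset, Cd80 was at 375 CPM in adult injury (39 cells) and 57.9 CPM in adult control (23 cells), with intervals of 318 to 439 and 33.7 to 92.8 CPM. Cd86 was at 994 and 402 CPM, Cd40 at 121 and 6.82 CPM and the maturation marker Cd83 at 1028 and 290 CPM, and none of these intervals overlapped. Cd274 had 29 UMIs in 11 of 39 cells of adult injury and none in adult control. The markers of the Ccr7/Fscn1 subset summed to 814 CPM in Cd209a cells of adult injury and 354 CPM in those of adult control, and without cells with collagen UMIs the Cd209a cells number 20 and 22. The part of either in these levels was not tested. In macrophages of the same libraries Cd80 was at 42.5 CPM in adult injury and 38.1 CPM in adult control, and Cd86 at 280 and 401 CPM.

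**Figure D5:**
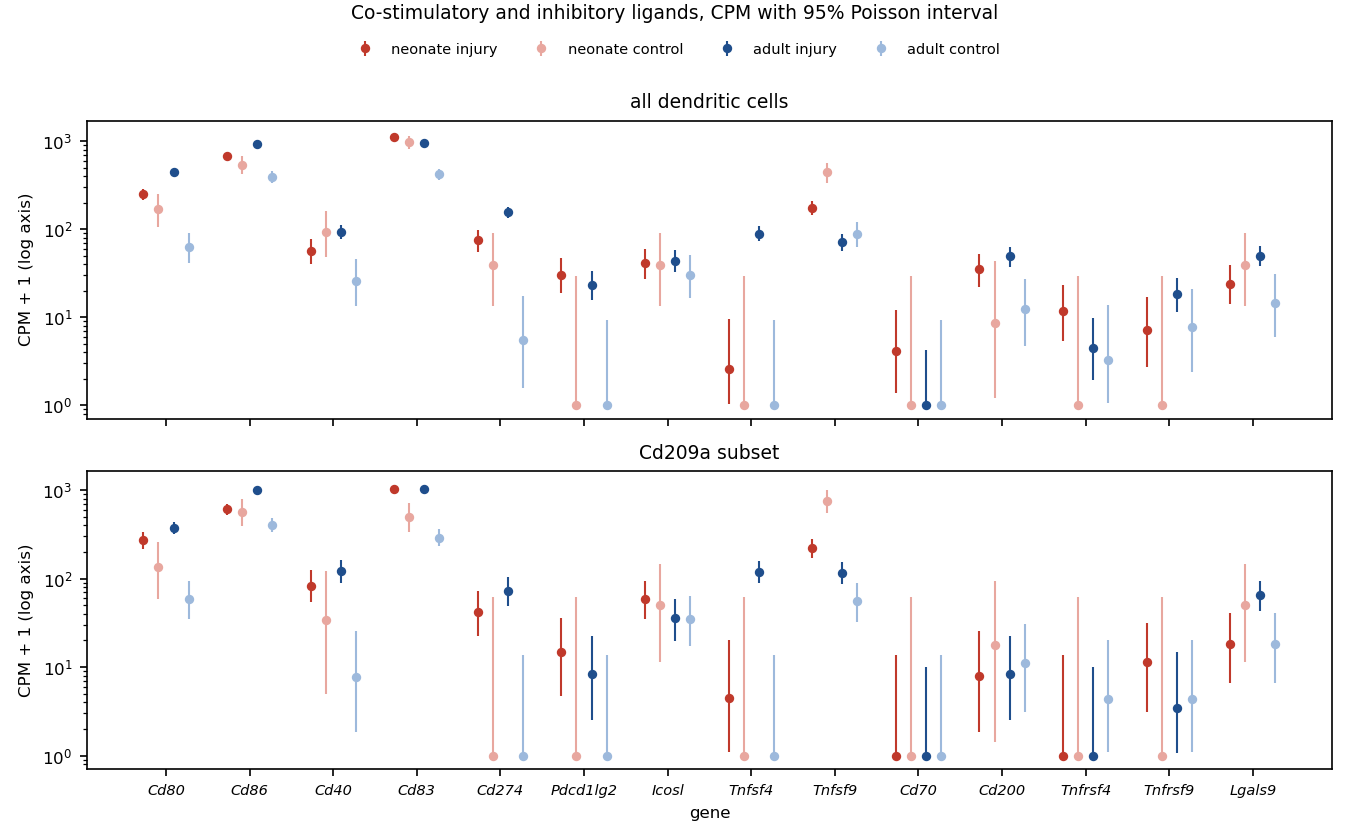
CPM + 1 on a log axis with exact 95% Poisson intervals for the 14 co-stimulatory and inhibitory ligands in the 4 libraries, over all dendritic cells (top) and the Cd209a subset (bottom). Within the Cd209a subset, Cd80 is at 375 CPM in adult injury and 57.9 CPM in adult control, and the intervals of neonate control, which has 5 such cells, are wide.

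Regulatory genes had 9 of 16 higher by 2-fold or more in adult injury and 0 lower (median 1.46), with Stat4 at 259 CPM in adult injury and 31.8 CPM in adult control. Transcription factors had 9 higher and 1 lower of 21 (median 0.65). Nr4a3 was at 972 and 152 CPM (2.67, 2.32 to 3.05) and Runx3 at 317 and 77.2 CPM (2.02, 1.53 to 2.59), and Batf3, at 49 and 102 CPM, was the 1 lower factor. Migration genes had 7 higher and 1 lower of 13 (median 1.01), with Basp1 at 708 and 72.6 CPM. Receptors had 7 higher and 0 lower of 11 (median 1.65), among them Itgae at 43 and 0 CPM. Ccl22 was at 257 and 4.54 CPM and Cxcl2 at 573 and 109 CPM among 11 chemokine ligands, of which 4 were higher and 1 lower. Without the cells with collagen UMIs 3 of 10 were higher and 4 lower, beside 1097 and 541 of 5909 genes. The median of this list turned to -0.67. Il1rn was at 242 and 13.6 CPM, in 31 of 100 and 1 of 33 cells, and Il6 at 121 and 2.27 CPM with 49.6% of its UMIs in 1 cell. Il21r, the interleukin-21 receptor gene, was found in 35 of 100 cells at 88.5 CPM and in 0 of 33, at least 13-fold higher. Of the remaining lists, interferon response genes had 6 higher and 0 lower of 12 (median 0.86), pattern recognition receptors 5 and 2 of 14 (median 0.81), cytokines 5 and 3 of 14 (median 0.19) and immediate early genes 2 and 5 of 15 (median -0.25).

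Of 13 class II genes, 1 was higher by 2-fold or more in adult injury and 1 lower (median -0.20). Without the cells with collagen UMIs 1 was higher and 3 lower (median -0.49, all genes 0.18), beside 1097 and 541 of 5909 genes. Cd74, the invariant chain, was at 9960 CPM in adult injury and 19106 CPM in adult control (log2 ratio -0.94, -0.98 to -0.90), and H2-Ab1 at 3700 and 6856 CPM. The lower gene was Marchf1, a ligase that removes class II from the cell surface, at 50.7 CPM in 28 of 100 cells and 313 CPM in 28 of 33 cells. Genes of the control Cd209a cells were lower too. Mgl2 was at 107 and 767 CPM over all members (-2.83, -3.14 to -2.54) and at 284 and 1019 CPM within the Cd209a subset. Cd163, a haptoglobin-hemoglobin receptor best known from macrophages, was at 27.1 CPM in adult injury and 596 CPM in adult control within that subset, in 6 of 39 and 19 of 23 cells, and the lysozyme gene Lyz2 at 1785 and 5715 CPM. C1q macrophages had Cd163 at 40.1 CPM in adult injury and 519 CPM in adult control.

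Most of the genes with the highest and lowest ratios in the adult comparison are not immune genes. Postn, a matrix gene, was at 488 CPM in adult injury and 0 in adult control, at least 71.7-fold higher, and stood at 4825 and 389 CPM in fibroblasts of these libraries. H19 and Has1 had 55.6% and 76.1% of their UMIs in 1 cell. Mctp2, Siglech and Prex2 were found in 5 or 6 cells of adult injury. Wif1, Myoc, Chad, Myh11, Lin7a, Cilp2, Mamdc2 and Coch were lower, and 7 of them, all but Mamdc2, had 61.3% to 94.6% of their control UMIs in 1 cell. The part of fibroblast RNA in these ratios was not tested beyond the removal of cells with collagen UMIs.

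Between neonate injury and neonate control, 745 of 5292 genes (14.1%) were higher by 2-fold or more and 623 (11.8%) were lower by as much, and the median log2 ratio was 0.06. The control side rests on 11 cells. Mrc1 had a UMI in 28 of 96 members of neonate injury (209 CPM) and 0 of 11 of neonate control, at least 9.17-fold higher. Jaml, a junctional adhesion molecule of leukocytes, was in 42 of 96 and 0 of 11 (143 CPM, at least 6.27-fold higher), while adult injury had 79.9 CPM and adult control 102 CPM, and macrophages of all 4 libraries at most 2.39 CPM. The adaptor gene Apba1 was in 34 of 96 and 0 of 11 cells (at least 4.52-fold higher). Ccr2 was at 297 CPM in neonate injury and 68.5 CPM in neonate control (2.04, 1.16 to 3.27), and Ciita at 154 and 15.2 CPM (3.02, 1.45 to 6.4). Transcription factors had 4 higher and 0 lower of 21 (median 0.52), with Irf8 at 531 and 167 CPM and the co-repressor gene Cbfa2t3 at 402 and 60.9 CPM.

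Of 11 chemokine ligands, 2 were higher by 2-fold or more in neonate injury and 6 lower (median -1.08). Without the cells with collagen UMIs they were 2 and 5 (median -0.96), beside 746 and 496 of 4769 genes. Heat shock genes, which tissue handling can induce, had 0 higher and 4 lower of 8 (median -1.13), namely Hspa1a, Hsp90aa1, Hspd1 and Dnaja1, and their part in the chemokine ratios was not tested. Ccl4, which attracts leukocytes, was at 183 CPM in neonate injury and 1469 CPM in neonate control (-3.00, -3.35 to -2.67), in 25 of 96 and 8 of 11 cells, and Ccl3 at 38.5 and 274 CPM. Ccl22 was at 186 and 30.4 CPM. S phase genes were at least 2-fold lower in 9 of 13 and higher in 1 (median -1.46), with Pcna, the DNA polymerase clamp, at 78.5 and 312 CPM. Co-stimulatory and inhibitory ligands had 1 higher and 1 lower of 9 (median 0.19). Cd80 was at 248 and 167 CPM and Cd86 at 677 and 540 CPM, and the lower gene, Tnfsf9, at 174 and 441 CPM. Whether the adult and neonatal differences differ from each other was not tested. The lowest genes Dlk1, Iigp1, Dclk1, Cdkn1c, Gpc3, Sulf1 and Nav3 had 92.5% to 100% of their control UMIs in 1 cell.

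Between neonate control and adult control, 517 of 4585 genes (11.3%) were higher by 2-fold or more in the neonate and 847 (18.5%) were lower, and the median was -0.07. Mrc1 and Cd163 were at 0 in all 11 neonatal members and were found in 21 and 22 of the 33 adult ones, at least 21-fold and at least 18.6-fold lower. Retnla, a secreted gene of alternatively activated macrophages, was in 0 of 11 and 7 of 33 cells, and Ccr2 was at 68.5 and 547 CPM (-2.92, -4.14 to -2.05). Pattern recognition receptors had 0 higher and 5 lower of 7 (median -1.10), and S phase genes 5 higher and 0 lower of 5 (median 2.52). Co-stimulatory and inhibitory ligands had 4 higher and 0 lower of 5 (median 1.46), with Cd80 at 167 CPM in neonate control and 61.3 CPM in adult control. Il1b was at 1538 and 526 CPM and Basp1 at 891 and 72.6 CPM. Dlk1, Peg3 and Mest were higher through single cells that held 96.6% to 100% of their UMIs.

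The injured libraries were set beside each other with 100 and 96 members, a comparison added after the data had been seen. In adult injury 1268 of 8265 genes (15.3%) were higher than in neonate injury by 2-fold or more and 324 (3.92%) were lower, and the median was 0.20. Igf2bp3, a fetal RNA-binding protein, was at 2.58 CPM in adult injury (3 of 100 cells) and 83.1 CPM in neonate injury (35 of 96 cells), a log2 ratio of -4.80 (-7.33 to -3.39). Both neonatal libraries had it and both adult ones nearly lacked it, at 98.9 CPM in neonate control (7 of 11 cells) and 6.81 CPM in adult control (3 of 33). Macrophages showed the same order, at 1.79 CPM in adult injury and 105 CPM in neonate injury, and at 157 CPM in neonate control and 8.87 CPM in adult control, and fibroblasts at 11 and 34.3 CPM in the injured libraries and 69.2 and 6.76 CPM in the controls. Within the Cd209a subset it was in 1 of 39 cells of adult injury and 20 of 42 of neonate injury.

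Il1rn, Cxcl2 and the sensing receptors Clec7a and Cd14 had higher levels in adult than in neonate injury. Il1rn was at 242 and 3.08 CPM (5.97, 4.43 to 9.35), Cxcl2 at 573 and 111 CPM (2.36, 2.02 to 2.74), Clec7a at 459 and 117 CPM and Cd14 at 333 and 97 CPM. Of 13 cytokines, 6 were higher by 2-fold or more and 3 lower, among them Il12b at 19.8 and 123 CPM. Without the cells with collagen UMIs 2 of 8 were higher and 3 lower (median 0.13, all genes 0.17), beside 846 and 326 of 6462 genes. When the Xcr1/Clec9a and Cd209a subsets were given equal weight and Ccr7/Fscn1 cells left out, the log2 ratio of Il12b was 0.058 in place of -2.62. Icam1, an adhesion molecule that T cells bind, was lower at 132 and 380 CPM (-1.53, -1.83 to -1.24). Co-stimulatory and inhibitory ligands had 4 higher and 1 lower of 12 (median 0.60), with Cd274 at 155 and 73.9 CPM and Cd80 at 451 and 248 CPM. G2M genes had 0 higher and 7 lower of 15 (median -0.70). Dscam, a cell adhesion gene, was found in 16 of 100 and 0 of 96 cells, at least 33.9-fold higher.

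UMIs of genes of the G2M phase were found in members of all 4 libraries. After thinning each cell to 1000 UMIs, at least 2 UMIs of G2M genes were found in 14 of 96 members of neonate injury (14.6%, 8.21 to 23.3%) and 4 of 11 of neonate control, and in 10 of 100 of adult injury (10%, 4.90 to 17.6%) and 1 of 33 of adult control. Macrophages had 5.47% in neonate injury and 14.9% in neonate control, and 4.50% in adult injury and 0 of 156 in adult control. In neonate injury 10 of 42 Cd209a cells (23.8%) and 1 of 31 Xcr1/Clec9a cells met this definition, and in adult injury 2 of 39 and 4 of 20. Of Ccr7/Fscn1 cells, 0 of 9 in neonate injury and 0 of 21 in adult injury did. Without thinning the counts were 35 of 96, 10 of 11, 37 of 100 and 6 of 33 members.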

How the data were processed

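Single-cell RNA was measured in 4 libraries, 1 per group. Per the file headers, the authors made the deposited counts, UMIs per gene and barcode, with Cell Ranger 8.0.1. The genome was GRCm39, per the submitters' processing notes. The files list 33696 genes, of which 26 symbols occur more than once, and the earliest entry was kept. Of 38780 barcodes, 36052 passed the filter. The members and gene lists were chosen with earlier results of these data known.

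Counts were summed per library and class. Classes of the same library, with at least 10 cells each, were compared with edgeR 4.0.16 (quasi-likelihood test, TMM scaling, low-count filter, library as block) in R 4.3.3, adjusted by Benjamini-Hochberg over all genes, with a threshold of 0.05. Genes of the rule and of the subset definition were left out of counts of calls. The standard errors given with edgeR fold changes were computed back from the test. Each is the absolute log2 fold change divided by the square root of the quasi-likelihood F statistic. They are approximate, and become too small for fold changes near 0. Between libraries, log2 ratios of CPM with 0.5 counts added and exact 95% binomial intervals were computed for genes with at least 20 UMIs over both libraries, without a test. Levels have exact Poisson intervals and shares exact binomial ones. A fold against 0 counts is a bound at a floor of 3 counts over the group.

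Named genes were the 8 highest and 8 lowest called with the same sign in every library used (between libraries, the 8 highest and lowest ratios where 1 of the libraries reached 50 CPM), and up to 4 of each list. The sign was taken after 0.5 counts were added. A gene without a UMI in either class of a library thus took the sign set by the class totals. Other members of the lists and markers were named after their values were seen. Doublets were scored with Scrublet in scanpy 1.11.5 and marked at 0.8% per 1000 barcodes. This marked 12 of the 240 members, which were kept and were removed as an alternative. On simulated counts the Xcr1/Clec9a over Cd209a fit recovered 9.89% of 2-fold and 68.8% of 4-fold changes (6100 genes) with 2.67% of calls false, and the dendritic over macrophage fit 19.6% and 85.6% (9393 genes) with 6.42%. The simulated counts had the same spread for every gene and a library effect equal in all classes. The share of false calls in the data may therefore differ and was not measured. Some genes are not reported here.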

Additional observations from a re-analysis of the deposited data

How the results depend on the processing

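Shares of dendritic cells and of their subsets are in percent. Thinning to 2000 UMIs gave dendritic shares of 0.363 in neonate injury, 1.25 in adult injury and 0.309 in adult control, Xcr1/Clec9a shares of 22 in neonate injury, 0 in neonate control and 5.56 in adult control, and Ccr7/Fscn1 shares of 0 in both controls. Requiring 3 panel UMIs and 10 of H2-Aa gave 0.490 in neonate injury, a C1q sum of 0 gave 1.49 in adult injury, and leaving out cells with 10 or more collagen UMIs gave 1.32 there. When a subset's cells could carry no UMI of either other subset's genes, the Ccr7/Fscn1 share was 0 in neonate control and the Cd209a share 28 in adult injury. Removing doublets, or collagen cells, took the 1 Ccr7/Fscn1 cell of adult control (0).

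Calls are given as higher and lower. Xcr1/Clec9a over Cd209a gave 47 and 73 in DESeq2, 48 and 45 with no replicate block and 125 and 176 with at least 5 cells. The library is the block, and no other pairing exists. Leaving out adult control gave 380 and 384, and neonate control, which is not in this fit, 397 and 468. Neither injured library could be left out. Dendritic cells over macrophages gave 467 and 396 with no replicate block, 1264 lower without a low-count filter, 1271 lower without doublets, and 403 to 709 higher and 377 to 710 lower on leaving out a library. Dendritic cells over monocytes gave 89 and 117 in DESeq2, 250 and 207 without the filter, 1 and 3 with no replicate block and 110 and 91 with at least 5 cells. Leaving out neonate injury gave 8 and 13 and leaving out adult control 42 and 60, but neither holds monocytes of the main fit. Neonate control and adult injury, which hold them, could not be left out. Of 16 genes with the highest or lowest change, 10 lost the call in DESeq2 and 12 with no replicate block for Xcr1/Clec9a over Cd209a, and 7 in DESeq2 for dendritic cells over macrophages. For dendritic cells over monocytes 14 of 16 lost it with no replicate block and 9 without neonate injury. The causes were not tested.

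Genes past 2-fold with at least 50 UMIs were 352 and 216 for neonate injury over control, 818 and 309 for adult injury over control, 191 and 348 for neonate over adult control, and 651 and 139 for adult over neonate injury. TMM scaling gave 509 lower in the last, and it shifted all log2 ratios by -0.18, 0.08, 0.17 and 0.16 in these comparisons, in this order. Equal weight of subsets, which for the adult comparison leaves Cd209a cells alone, gave 1040 lower there and reversed Prex2 (-0.47), and Il12b between the injured libraries (0.058). It could not be computed for the comparisons with neonate control.

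Depth and cell number limit all of this: 11 members in neonate control, 9 and 21 Ccr7/Fscn1 cells in the injured libraries and 20 monocytes. Genes not detected in 11 cells may be present below these counts.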
